A study of Homo sapiens with 4 samples.

Results

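Integrin subunits and laminin chains were taken as every protein-coding gene in the table whose symbol is ITGA followed by a number or by D, E, L, M, V, X or 2B, ITGB1 to ITGB8, LAMA1 to LAMA5, LAMB1 to LAMB4, LAMC1 or LAMC3. The rule used the symbols, and a measured value only where a symbol was repeated, when the entry with the highest mean was kept. It found 40 entries, of which 3 repeated a symbol and held 0 reads, which left 37 genes of the 63677 in the table, 22810 of them protein-coding. They are 18 integrin alpha subunits, 8 integrin beta subunits and 11 laminin chains. The cells were MDA-MB-231, an established line from a triple-negative breast cancer, which is one that lacks the oestrogen and progesterone receptors and amplified HER2. All of them received siRNA with a lipid reagent, either a control siRNA (siCt, 2 libraries) or a pool of siRNAs against AXL, a TAM receptor tyrosine kinase (siAxl, 2 libraries), and no untransfected cells were part of the comparison. A pool reports on its several siRNAs together, so that the share of any single one cannot be told apart. RNA was sequenced to ask which genes change when AXL is depleted.

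Integrins are cell surface receptors made of 1 alpha and 1 beta subunit, and the pair decides which matrix protein is held. Laminins are secreted trimers of 1 alpha, 1 beta and 1 gamma chain that build the basement membrane, the sheet on which epithelial cells sit. In breast epithelium the ITGA6 and ITGB4 pair anchors cells to laminin in hemidesmosomes, and the laminin that holds the LAMA3 and LAMB3 chains is a main ligand of that pair and of the ITGA3 and ITGB1 pair. An alpha subunit needs a beta subunit to reach the surface, so transcript levels of single subunits do not give the number of receptors.

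The values are normalized counts, which the authors made by dividing each gene's reads by the size factor that DESeq2 gave the library. The reads behind them could be recovered and summed to between 39574387 and 44585773 per library. AXL (ENSG00000167601), the targeted gene, had 29189 and 30617 normalized counts in siCt 1 and siCt 2 and 8658 and 7141 in siAxl 1 and siAxl 2. The log2 fold change of siAxl over siCt was -1.93 (standard error, SE, 0.0918, adjusted p = 0.000585 by limma), and the groups did not overlap. Differences were tested with limma on log2(normalized count + 1) over the 16064 genes that passed a filter on low counts. On this scale the change of a low gene comes out too small. A gene is called higher or lower below where its Benjamini-Hochberg adjusted p over all of these genes was under 0.05. Nothing in the labels says that the libraries of a group came from separate cultures, so the p-values measure the spread between these libraries, which may be technical. Two-sided exact permutation of 2 against 2 libraries cannot give a p under 0.333. In bulk RNA, fewer expressing cells and less RNA per cell cannot be told apart.

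The libraries carried the markers of the line. VIM had between 86751 and 99296 normalized counts, and ESR1 and PGR had at most 3.25, while ERBB2 had between 2949 and 3680. Of the cells that could bring in integrins of their own, leukocytes had summed marker levels of 102.6 to 123.5 in siCt and 149.6 to 171.0 in siAxl over 5 genes, with SPI1 at 0 and CD3E at no more than 0.959. Platelet markers summed to at most 6.50 over 3 genes with PPBP and GP9 at 0, and endothelial markers to at most 7.58 over 3 genes with PECAM1 at 0. The 4 fibroblast markers summed to 520.7 to 555.8 in siCt and 731.1 to 809.0 in siAxl, where PDGFRB and COL1A2 were called higher, while PDGFRA and DCN stayed at no more than 1.97 in each library. The 4 epithelial markers summed to 30781 to 33607 in siCt and 26495 to 27674 in siAxl, with CDH1 and KRT8 called lower. EPCAM of the same list had 564.8 and 625.2 in siCt and 710.9 and 771.3 in siAxl (log2 fold change 0.32, adjusted p = 0.0513 by limma). Of the 2 mesenchymal markers, CDH2 was called lower, from 75.8 and 74.8 to 34.96 and 48.15 (-0.86, adjusted p = 0.0357), and ZEB1 lay between 3075 and 3697 (0.20, 0.0602). The part of these markers in the results below was not tested.

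The promoters of LAMA3 and LAMB3, which join in 1 trimer, are shown because they hold the AP-1 word, and that of LAMB1, a beta chain of other laminins, because LAMB1 was called higher below in every setting run. Each sequence is the 250 bases before the start site from RefSeq, build GRCh38.p14, 5′ to 3′ on the strand of the gene. Capitals mark the AP-1 word, TGAGTCA or its reverse complement TGACTCA, both strands searched and read as 1 word.
LAMA3, chr18:23872770-23873019, plus strand: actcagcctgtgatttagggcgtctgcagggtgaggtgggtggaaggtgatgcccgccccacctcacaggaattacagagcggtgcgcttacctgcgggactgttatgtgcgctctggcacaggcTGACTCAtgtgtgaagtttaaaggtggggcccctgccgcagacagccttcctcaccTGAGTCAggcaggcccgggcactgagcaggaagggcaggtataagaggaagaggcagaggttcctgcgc
LAMB3, chr1:209651375-209651624, minus strand: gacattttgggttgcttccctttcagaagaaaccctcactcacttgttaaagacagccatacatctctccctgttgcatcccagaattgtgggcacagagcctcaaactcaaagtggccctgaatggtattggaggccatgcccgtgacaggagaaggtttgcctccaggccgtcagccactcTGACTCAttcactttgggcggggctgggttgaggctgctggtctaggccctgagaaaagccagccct
LAMB1, chr7:108003162-108003411, minus strand: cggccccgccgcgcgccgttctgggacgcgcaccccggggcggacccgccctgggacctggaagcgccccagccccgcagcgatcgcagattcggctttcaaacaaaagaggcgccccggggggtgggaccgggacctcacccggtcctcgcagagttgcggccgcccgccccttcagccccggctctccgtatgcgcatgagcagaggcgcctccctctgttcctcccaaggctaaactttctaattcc
LAMA3 carried the word at 2 places and LAMB3 at 1 place in 1 of its 3 promoters, and LAMB1 did not carry it. Among 35116 RefSeq promoters, 4.2% held the word. Of the 21 tested members with an entry, LAMA3 and LAMB3 were the 2 that held it. A promoter entry was found for 26 of the 37 genes. For ITGA3, ITGA7, ITGB2, ITGB3, ITGB4 and LAMA1 the table gave none.

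The other words searched in the same promoters were read on both strands, except TATAAA, read on the strand of the gene, and none contains another. The GC box (GGGCGG or CCGCCC) stood in 12 of the 21, against 42.6% of all promoters. The E-box (CACCTG or CAGGTG) stood in 6, against 17.5%. The TEAD word (GGAATG or CATTCC) was in ITGA10, ITGA5, ITGB1 and LAMA2, against 11.9%, the hypoxia response word (ACGTG or CACGT) in ITGA6, against 18.5%, and TATAAA in ITGB1, against 6.8%. The SMAD word GTCTAGAC was in 0 of the 21, against 0.182%. For each word, AP-1 included, a member was counted if any of its promoter entries held it. The background is a share of single promoters, so members with several entries had more room for a match. A match says only that the letters are there.

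Of the 37 genes, 27 passed the filter on low counts and 15 of these were called higher in siAxl, against a background of 10.8% of all tested genes called higher. None was called lower by limma in the main fit, where the background was 7.91%. Settings of limma that did call members lower are given at the end. At an unadjusted p under 0.05 the number lower was 1, ITGB7, and edgeR and DESeq2 on the recovered reads called 0 lower, where they called 7.91% and 8.57% of all genes lower and 11.5% higher. Both siAxl libraries lay above both siCt libraries in 21 of the 27, against 30.6% of all tested genes, and below them in 1, against 30.5%. The median log2 fold change was 0.30 over the 27 and -0.0022 over all tested genes. The other 10 genes were too low to test, and ITGA2B and ITGB7 reached the filter only through the libraries of the group in which they were higher, so that a difference in them was built in and the counts over the 27 are a description. Fewer members were called higher with any one library left out, the fewest without siAxl 2. Over all tested genes fewer were also called higher without siAxl 1, siAxl 2 or siCt 2, and more without siCt 1. The median log2 fold change of the 27 then lay between 0.26 and 0.32. Over all genes the calls were 1735 higher and 1271 lower (57.7% higher), and 1536 higher and 1745 lower (46.8% higher) when libraries were scaled by their sum of reads, where 14 of the 15 calls of the integrin and laminin genes were still made.

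**Figure D1:**
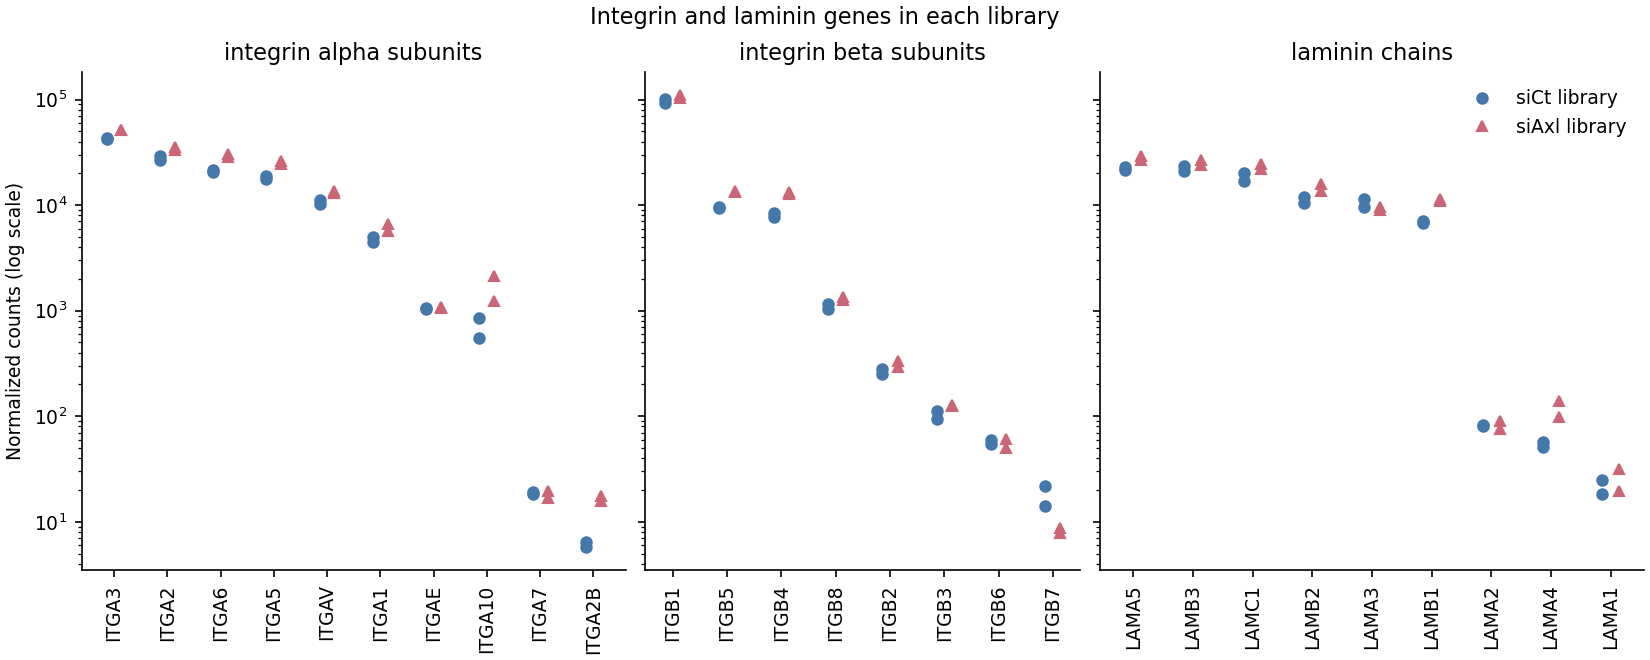
Normalized counts (log axis) of the 27 tested integrin and laminin genes in each library, by family and in order of level, with a circle for each siCt library and a triangle for each siAxl library. The triangles lie above the circles in 21 genes, and LAMA3 and ITGB7 are among the few where they do not.

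Abundant genes were also counted apart. Of the 18 with a mean of at least 1000 normalized counts, a limit chosen after the values were seen, 13 were called higher, against 14.7% of the 7647 tested genes of that level. Of the other 9 tested, 2 were called higher. The alpha subunits had 8 of 10 tested called higher (median log2 fold change 0.35), the beta subunits 2 of 8 (0.24) and the laminin chains 5 of 9 (0.33). ITGA2B is among the 8 alpha subunits and the 2 less abundant genes called higher. It reached the filter only through the siAxl libraries, so that its difference was built in.

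**Figure D2:**
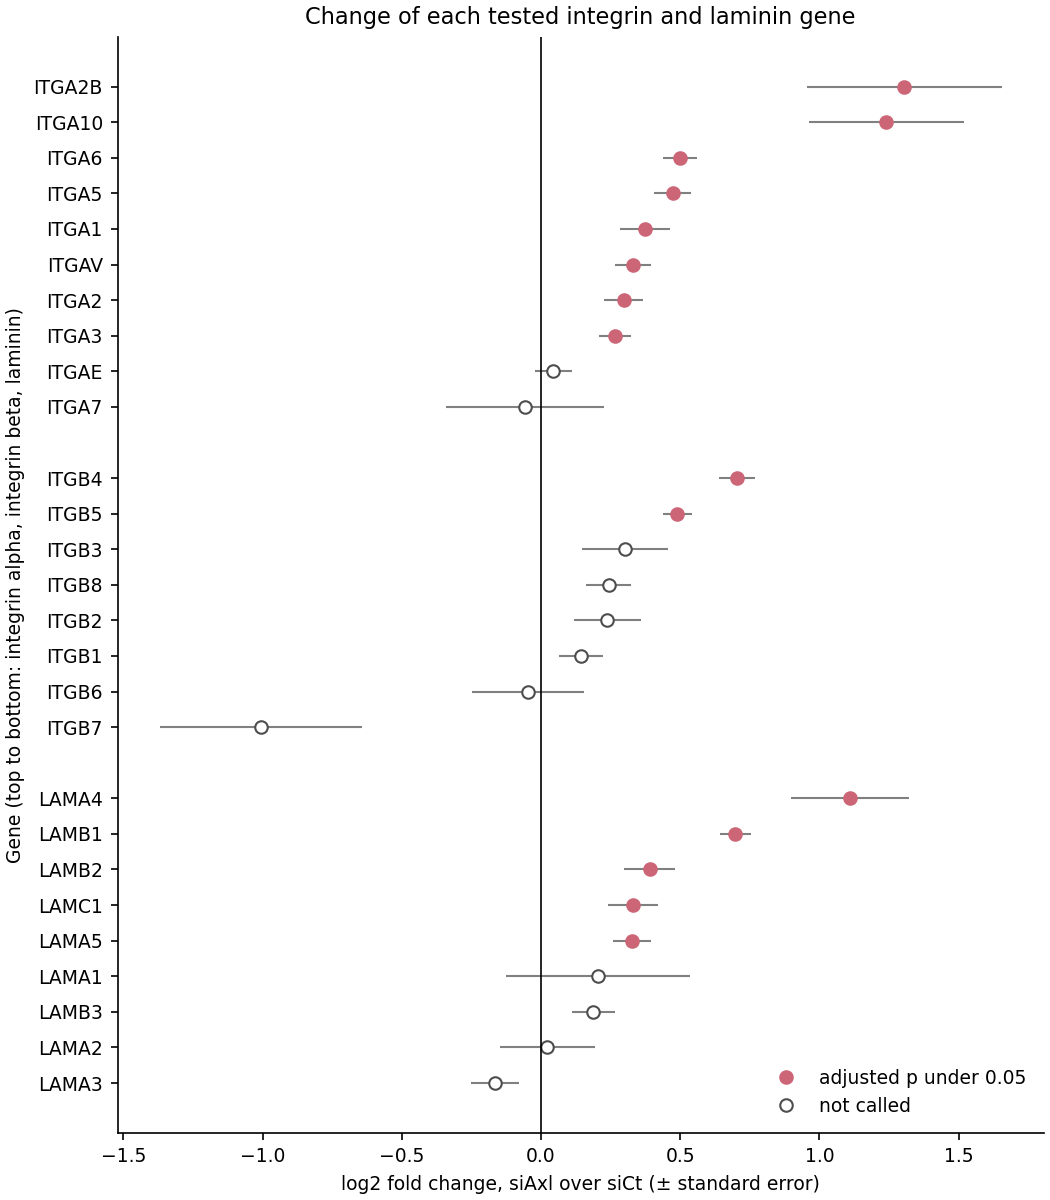
Log2 fold change of siAxl over siCt for each tested integrin alpha, integrin beta and laminin gene, with the standard error from limma as a bar and filled points for an adjusted p under 0.05. All 15 filled points lie to the right of 0.

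Among the alpha subunits that bind laminin, ITGA6 and ITGA3 were called higher. ITGA6 (ENSG00000091409), which pairs with ITGB4 in hemidesmosomes and with ITGB1 elsewhere, had 21394 and 20576 normalized counts in siCt 1 and siCt 2 and 28728 and 30626 in siAxl 1 and siAxl 2. Its groups did not overlap, and its log2 fold change was 0.50 (SE 0.0605, adjusted p = 0.00369 by limma). ITGA3, a receptor subunit for laminins with the LAMA3 or LAMA5 chain, had 42417 and 43112 normalized counts in siCt and 51709 and 51213 in siAxl. The libraries of each group lay close together and apart from the other group (log2 fold change 0.27, SE 0.0573, adjusted p = 0.022 by limma). The call of ITGA3 was lost with any one library left out, with limma adjusted p of 0.0854 to 0.117 and log2 fold changes of 0.26 to 0.28. ITGA7, the laminin-binding subunit of muscle, was near the limit of detection with 19.2 and 18.4 normalized counts in siCt and 19.4 and 16.7 in siAxl, and its groups overlapped (log2 fold change -0.06, SE 0.283, adjusted p = 0.908 by limma). Per kb of transcript (the principal GENCODE 29 transcript) ITGA3 was the most abundant alpha subunit, with 8749 ± 100.5 normalized counts per kb in siCt and 10528 ± 71.8 in siAxl (SD, n = 2). ITGA6 had 3735 ± 103 normalized counts per kb in siCt and 5282 ± 239 in siAxl (SD, n = 2), so that its share of all alpha subunit signal per kb was 16.6% ± 0.832 in siCt and 18.2% ± 0.346 in siAxl, while that of ITGA3 was 38.9% ± 0.431 and 36.4% ± 1.20 (SD, n = 2).

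Each of the 3 tested alpha subunits that bind collagen was called higher. ITGA2, the receptor subunit for fibrillar collagen in epithelium, had 26768 and 29279.8 normalized counts in siCt 1 and siCt 2 and 33021 and 35814 in siAxl 1 and siAxl 2 (log2 fold change 0.30, SE 0.0714, adjusted p = 0.0306 by limma). ITGA1, which binds the collagen of basement membranes, had 4469 and 4996 normalized counts in siCt and 5659 and 6634 in siAxl (log2 fold change 0.37, SE 0.0904, adjusted p = 0.0308 by limma). In both genes the groups did not overlap. ITGA10, known from cartilage, had 861 and 546 normalized counts in siCt and 2122 and 1240.1 in siAxl. Its groups did not overlap, but the libraries differed widely within each group, and its log2 fold change was 1.24 (SE 0.277, adjusted p = 0.0247 by limma). With DESeq2 its adjusted p was 0.0543. Without siAxl 2 the values of ITGA1 and ITGA2 were 0.26 (limma adjusted p = 0.111) and 0.24 (0.144), and without siCt 1 that of ITGA2 was 0.23 (0.106). ITGA11, the fourth collagen-binding subunit, had 22 reads over the 4 libraries and was not tested.

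Of the 4 alpha subunits that recognise the RGD motif of fibronectin and related proteins, 3 were tested and called higher. ITGA5 (ENSG00000161638), the fibronectin receptor subunit that pairs with ITGB1, had 17627 and 18849.9 normalized counts in siCt 1 and siCt 2 and 24264 and 26381 in siAxl 1 and siAxl 2. It was higher in both siAxl libraries (log2 fold change 0.47, SE 0.0667, adjusted p = 0.00573 by limma) and kept its call with each library left out. ITGAV, which pairs with ITGB1, ITGB3, ITGB5, ITGB6 and ITGB8, had 10205 and 11205 normalized counts in siCt and 13151 and 13739.8 in siAxl (log2 fold change 0.33, SE 0.0645, adjusted p = 0.0162 by limma), and without siAxl 2 its value was 0.30 (limma adjusted p = 0.0668). ITGA2B, the platelet fibrinogen receptor subunit, was called higher from 46 reads in all, 6 in each siCt library and 18 and 16 in the siAxl libraries (log2 fold change 1.30, SE 0.35, adjusted p = 0.0426 by limma), and it lost the call with each library left out (adjusted p of 0.0586 to 0.19). ITGA2B reached the filter only through the siAxl libraries, so that a difference in it was built in. The platelet markers PPBP and GP9 were at 0 in every library, and PF4 had 4 and 6 reads in siCt and 5 and 2 in siAxl. Their part in ITGA2B was not tested. ITGA8, known from smooth muscle and kidney, had 2 reads.

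The leukocyte and lymphocyte subunits were low or not called. ITGAE, which binds E-cadherin on lymphocytes, had 1050.0 and 1035 normalized counts in siCt 1 and siCt 2 and 1065 and 1085 in siAxl 1 and siAxl 2. The siAxl libraries lay just above the siCt libraries, by a log2 fold change of 0.04 (SE 0.0668, adjusted p = 0.689 by limma), and 6.41% of its exon bases in GENCODE 29 lie opposite to HASPIN, which held 708.8 reads per library on average, so that reads of the pair cannot be told apart without strand. ITGAL, ITGAX, ITGAM and ITGAD had 10, 6, 3 and 0 reads over the 4 libraries, and ITGA9 and ITGA4 had 8 and 1. At these depths a count of 0 allows up to 3 reads per library, and no difference was detectable.

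ITGB4 and ITGB5 were the 2 of 8 beta subunits called higher. ITGB4 (ENSG00000132470), whose long cytoplasmic tail ties laminin receptors to keratin filaments, had 8353 and 7673 normalized counts in siCt 1 and siCt 2 and 13443 and 12652 in siAxl 1 and siAxl 2. The groups lay far apart compared with the gap within each (log2 fold change 0.70, SE 0.0647, adjusted p = 0.00205 by limma), a rise of 1.63-fold in the means. ITGB5 (ENSG00000082781), a partner of ITGAV in vitronectin binding, had 9478 and 9559.8 normalized counts in siCt and 13179 and 13563 in siAxl (log2 fold change 0.49, SE 0.0523, adjusted p = 0.00273 by limma). Both calls held in every alternative setting. ITGB1 (ENSG00000150093), the shared partner of most alpha subunits above, had 92039.9 and 101705 normalized counts in siCt and 103214 and 110735 in siAxl. Its siAxl libraries were above its siCt libraries, but siCt 2 and siAxl 1 differed by less than the gap within either group, and the test was not passed (log2 fold change 0.14, SE 0.0785, adjusted p = 0.247 by limma). With 1 library left out its value ran from 0.072 (without siCt 1) to 0.22 (without siCt 2), and it was 0.093 without siAxl 2. Both genes were compared by the ratio of ITGB4 to ITGB1 per kb in the same library. This was 0.0558 and 0.0464 in siCt and 0.0801 and 0.0703 in siAxl, a log2 difference of 0.56 with no overlap (exact permutation p = 0.333, the smallest possible).

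The other beta subunits did not pass the test. ITGB8 had 1041 and 1157 normalized counts in siCt and 1252 and 1349 in siAxl (log2 fold change 0.24, SE 0.0811, adjusted p = 0.0793 by limma), with no overlap, and it was called higher when siCt 2 was left out (log2 fold change 0.32, adjusted p = 0.0239). ITGB2, the leukocyte beta subunit, had 252 and 282 normalized counts in siCt and 337 and 294 in siAxl and did not overlap (log2 fold change 0.24, SE 0.12, adjusted p = 0.211 by limma), with values of 0.14 (without siAxl 1) to 0.34 (without siAxl 2) and 0.16 without siCt 1. Of the leukocyte markers, CD14 had 69.0 and 73.7 normalized counts in siCt and 100.04 and 113.00 in siAxl (log2 fold change 0.57, adjusted p = 0.0509 by limma), CD68 had 24.0 and 37.9 against 41.8 and 41.3 (0.45, 0.301), PTPRC overlapped between groups and SPI1 was at 0. Their part in ITGB2 was not tested. Of the exon bases of ITGB3, a partner of ITGA2B and ITGAV, 51.6% also belong to another protein-coding entry on the same strand, ENSG00000259753, which held 0 reads. ITGB3 itself had 112 and 94.3 normalized counts in siCt and 128 and 126 in siAxl (log2 fold change 0.30, SE 0.154, adjusted p = 0.218 by limma), and its value was 0.18 without siCt 2. ITGB6, an epithelial partner of ITGAV, had 59.5 and 54.2 normalized counts in siCt and 49.5 and 60.9 in siAxl with overlapping groups. ITGB7, the lymphocyte beta subunit, had 22.1 and 14.1 normalized counts in siCt and 8.74 and 7.86 in siAxl, and it was the one tested member whose siAxl libraries both lay below the siCt libraries (log2 fold change -1.01, SE 0.364, adjusted p = 0.0987 by limma). It had 53 reads over the 4 libraries, and 42.1% of its exon bases lie opposite to ZNF740, which held 1767.5 reads per library on average. How the counting treated reads in shared bases is not given in the sources used here, so that reads of ITGB3 and ITGB7 may have been left out and their levels are uncertain.

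Per kb, ITGB1 made up most of the beta subunit signal, with 87.5% ± 0.937 (SD, n = 2) in siCt and 84.1% ± 0.747 in siAxl. ITGB5 followed with 7.17% ± 0.386 and 8.75% ± 0.180, and ITGB4 with 4.47% ± 0.535 and 6.32% ± 0.528. Ratios between subunits that pair were also taken. The ratio of ITGB4 to ITGA6 per kb was 0.371 and 0.354 in siCt and 0.444 and 0.392 in siAxl (log2 difference 0.20), that of ITGA6 to ITGB1 was 0.151 and 0.131 against 0.180 and 0.179 (0.36), and that of ITGA5 to ITGB1 was 0.157 and 0.152 against 0.193 and 0.195 (0.33). That of ITGB5 to ITGAV was 1.49 and 1.37 against 1.61 and 1.59 (0.16). Further log2 differences were 0.23 (ITGA6 to ITGA3), 0.31 (LAMB1 to LAMB2) and 0.49 (LAMA5 to LAMA3). ITGB3 to ITGB5 (-0.19) and ITGA2 to ITGA1 (-0.078) were lower in siAxl. In each of these ratios the groups did not overlap, and the exact permutation p was 0.333. Of all tested genes, 30.6% lay above and 30.5% below without overlap, and the share over all ratios was not taken. The ratios to ITGB1 set genes called higher over a gene not called. A ratio within a library does not depend on its scaling.

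LAMC1, the gamma chain of most laminins, was called higher. It had 17064 and 19986 normalized counts in siCt 1 and siCt 2 and 22025 and 24451 in siAxl 1 and siAxl 2, and its groups did not overlap (log2 fold change 0.33, SE 0.0895, adjusted p = 0.0441 by limma). Its call was lost without siCt 1 (log2 fold change 0.22, adjusted p = 0.11), without siAxl 2 (0.25, 0.158) and under scaling by the sum of reads (0.30, 0.0506). LAMC3 had 2 reads.

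Of the 3 tested beta chains, LAMB1 and LAMB2 were called higher. LAMB1 (ENSG00000091136), the beta chain of laminins found in many basement membranes, had 7052 and 6737 normalized counts in siCt 1 and siCt 2 and 11011 and 11362 in siAxl 1 and siAxl 2. The rise of 1.62-fold was large against the gap within the groups (log2 fold change 0.70, SE 0.0551, adjusted p = 0.00145 by limma), and 0.86% of its exon bases lie opposite to DLD. LAMB2, known from kidney, muscle and nerve, had 11937 and 10429 normalized counts in siCt and 15737 and 13592 in siAxl (log2 fold change 0.39, SE 0.0919, adjusted p = 0.0286 by limma), and without siAxl 1 its value was 0.28 (limma adjusted p = 0.106). LAMB3, the beta chain that joins LAMA3, had 20958 and 23444 normalized counts in siCt and 24075 and 26492 in siAxl and did not pass the test (log2 fold change 0.19, SE 0.0774, adjusted p = 0.137 by limma), with values of 0.11 (without siCt 1) to 0.27 (without siCt 2) and 0.12 without siAxl 2. LAMB4 had 14 reads.

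Of the laminin alpha chains, LAMA5 and LAMA4 were called higher. LAMA5, the alpha chain of the widespread epithelial laminins, had 23108 and 21594 normalized counts in siCt 1 and siCt 2 and 29355 and 26776 in siAxl 1 and siAxl 2 (log2 fold change 0.33, SE 0.0689, adjusted p = 0.0206 by limma). Its call was lost without siAxl 1 (0.26, adjusted p = 0.108) and without siCt 2 (0.28, 0.0515), and 1.71% of its exon bases lie opposite to ADRM1. LAMA4, an alpha chain of vessel and mesenchymal laminins, rose from a low level, with 57.5 and 50.9 normalized counts in siCt and 99.1 and 141 in siAxl (log2 fold change 1.11, SE 0.212, adjusted p = 0.015 by limma). The endothelial markers summed to at most 7.58 in each library, with PECAM1 at 0. The fibroblast markers PDGFRB (log2 fold change 0.54, adjusted p = 0.0130 by limma) and COL1A2 (0.48, 0.0333) were called higher. PDGFRA and DCN of the same list stayed at no more than 1.97 in each library. The part of these markers in LAMA4 was not tested. Without siAxl 2 the value of LAMA4 was 0.86 (limma adjusted p = 0.065). LAMA3 (ENSG00000053747), the alpha chain that joins LAMB3, had 9577 and 11344 normalized counts in siCt and 8956 and 9655 in siAxl, with overlapping groups and a log2 fold change of -0.16 (SE 0.0873, adjusted p = 0.234 by limma). When siCt 1 was left out it was called lower (-0.29, adjusted p = 0.0131), and without siCt 2 its value was -0.043 (0.817). LAMA1, the embryonic alpha chain, and LAMA2, the alpha chain of muscle, had 18.2 to 31.4 and 75.8 to 90.4 normalized counts, each with overlapping groups. Their log2 fold changes were 0.21 (limma adjusted p = 0.711) and 0.023 (0.940), and either sign was seen as single libraries were left out, and for LAMA2 under scaling by the sum of reads.

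**Figure D3:**
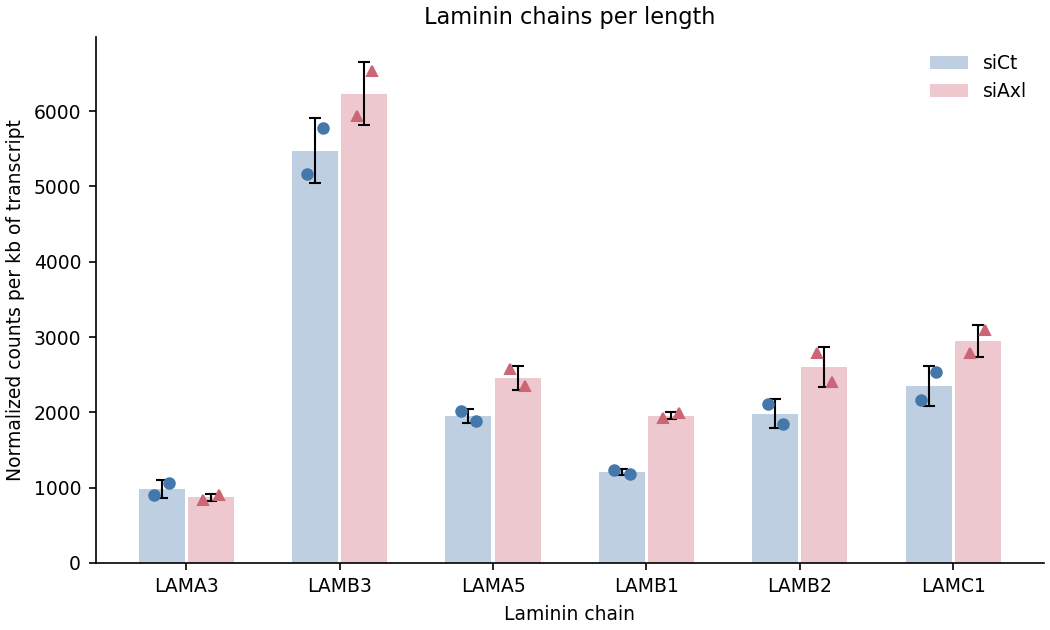
Normalized counts per kb of transcript for 6 laminin chains with a mean above 1000 normalized counts, with bars for the group means, error bars for the SD of 2 libraries and points for the libraries. LAMB1 stands at 1204 in siCt and 1954 in siAxl, while LAMA3 stands at 981.2 and 872.8. Each length is that of 1 principal transcript, 10.661 kb for LAMA3.

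LAMB3 and LAMA3 were also compared as a ratio within each library, which asks whether they kept their proportion. Per kb of transcript, LAMB3 had 5475 ± 433 normalized counts per kb in siCt and 6235 ± 422 in siAxl (SD, n = 2) and LAMA3 had 981 ± 117 normalized counts per kb in siCt and 873 ± 46.4 in siAxl (SD, n = 2). The ratio of LAMB3 to LAMA3 was 5.75 and 5.43 in siCt and 7.07 and 7.21 in siAxl, a log2 difference of 0.35. It did not overlap between groups, with an exact permutation p of 0.333, the smallest that 2 against 2 libraries can give. Among the alpha chains the share of LAMA3 was 33.2% ± 3.70 (SD, n = 2) in siCt and 26.0% ± 2.21 in siAxl, and that of LAMA5 was 66.2% ± 3.69 and 73.1% ± 2.43. These levels, ratios and shares rest on 1 transcript length per gene, 10.661 kb for LAMA3 and 4.055 kb for LAMB3. The promoters shown above were taken by gene symbol and were not matched to these transcripts. The LAMA3 promoter may therefore belong to another transcript than the one of 10.661 kb. If a shorter LAMA3 transcript was expressed, its level per kb and share would be higher and the ratio lower. The log2 difference would not change if both groups held the same transcripts, and which were expressed was not tested.

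The 3′ UTRs were read for CACATCA, a word whose carriers were known from earlier results to lie higher in these data. Over 12872 tested genes with a 3′ UTR in GENCODE 29, the 1256 with the word had a median log2 fold change of 0.12, with 364 called higher, and the 11616 without it had -0.0093, with 1294 called higher. It stood in 2 of the 27 members (7.41%), ITGA6 and ITGB6, against 9.76% of all these genes. Of the members called higher, 1 held it and 14 did not, where over all genes 364 did and 1294 did not. The part of the word in the members was not tested. The median 3′ UTR length was 2905.5 bases with the word and 896 without it over all genes, and 490 over the 25 members without it, and the part of length was not tested. The sites are shown with 10 bases on either side and the word in capitals, 5′ to 3′ on the strand of the transcript.
ITGA6, word from base 607 of the 3′ UTR: ttagctgtccCACATCAcaagactatg
ITGB6, word from base 948 of the 3′ UTR: ctaaatcaagCACATCAagagtataca
ITGA6 was called higher and ITGB6 had a log2 fold change of -0.05 (SE 0.201, adjusted p = 0.897 by limma). Over the 25 members without the word the median log2 fold change was 0.30.

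The proteins that work with integrins and laminins were read from 6 lists, chosen by known function but with earlier results of these data known. Over all tested genes, 18.7% were called in either direction. Basement membrane proteins that assemble with laminin had 7 of 10 tested called higher and 0 lower (median log2 fold change 0.27). COL4A5, COL4A2 and COL4A4 are chains of type IV collagen, the network that lies beside laminin. COL4A5 had 1972 and 2001 normalized counts in siCt 1 and siCt 2 and 3000.1 and 3069.7 in siAxl 1 and siAxl 2 (log2 fold change 0.61, SE 0.0566, adjusted p = 0.00208 by limma). COL4A2 had 5653 and 5735 normalized counts in siCt and 7522 and 7722 in siAxl (log2 fold change 0.42, SE 0.0524, adjusted p = 0.00393 by limma), and COL4A4 rose from a low level, with 27.8 and 23.8 normalized counts in siCt and 101 and 77.6 in siAxl (log2 fold change 1.74, SE 0.224, adjusted p = 0.00433 by limma). COL4A6, COL4A1, NTN4 and COL18A1 were called higher as well. NID1, the linker between laminin and type IV collagen, had 0 reads, and NID2 and COL4A3 were too low to test. At an unadjusted p under 0.05 the number lower was 0, and edgeR and DESeq2 also called 0 lower. Fewer of the list were called without siAxl 1 or without siAxl 2, where fewer of all tested genes were called as well.

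Other laminin receptors and hemidesmosome genes had 3 of 9 called higher and 1 lower (median 0.25). MCAM, a receptor for laminins with the LAMA4 chain, had 1969.6 and 1835 normalized counts in siCt 1 and siCt 2 and 2963 and 2825 in siAxl 1 and siAxl 2 (log2 fold change 0.61, SE 0.0649, adjusted p = 0.00274 by limma). DAG1, which encodes dystroglycan, had 12916 and 12125 normalized counts in siCt and 17550.1 and 18661 in siAxl (log2 fold change 0.53, SE 0.0616, adjusted p = 0.00329 by limma), and SDC1, a heparan sulphate receptor, had 3198 and 3247 normalized counts in siCt and 4246 and 4608 in siAxl (log2 fold change 0.46, SE 0.0617, adjusted p = 0.00509 by limma). SDC4, a heparan sulphate co-receptor of ITGA5 and ITGB1 on fibronectin, went the other way, with 12185 and 13349 normalized counts in siCt and 10648 and 10751 in siAxl (log2 fold change -0.25, SE 0.062, adjusted p = 0.032 by limma), and its call was lost without siCt 2 (log2 fold change -0.19, adjusted p = 0.162), without siAxl 1 (-0.25, 0.125) and without siAxl 2 (-0.26, 0.0989). PLEC and DST, the linkers from ITGB4 to keratin, had log2 fold changes of 0.011 (SE 0.0602, limma adjusted p = 0.920) and 0.046 (SE 0.221, 0.906). DST had 28580 and 42452 normalized counts in siCt and 29543 and 43787 in siAxl. The gap within each group was wide, so that a modest change in DST could not be seen.

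Tetraspanins and related membrane partners of integrins had 4 of 7 called higher and 0 lower (median 0.25), with 0 lower at an unadjusted p under 0.05 and 0 by edgeR and DESeq2. CD47, a partner of ITGAV with ITGB3, had 6563 and 6489 normalized counts in siCt and 8636 and 8557 in siAxl (log2 fold change 0.40, SE 0.0512, adjusted p = 0.00435 by limma). CD81 and CD9 are tetraspanins of the cell surface. CD81 had 7167 and 6986 normalized counts in siCt and 8745 and 8967 in siAxl (log2 fold change 0.32, SE 0.0527, adjusted p = 0.00913 by limma), and CD9 had 6291 and 6473 normalized counts in siCt and 8207 and 7847 in siAxl (log2 fold change 0.33, SE 0.0549, adjusted p = 0.00967 by limma). CD151, which binds ITGA3 and ITGA6 directly, was the fourth. Without siAxl 1 fewer of the list were called, as over all tested genes, and the call of CD9 was lost (log2 fold change 0.30).

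Adaptors and kinases of adhesions had 4 of 22 tested called higher and 0 lower (median 0.056), against the background of 10.8% higher. FERMT1, which encodes the kindlin of epithelia and switches integrins on, had 1091 and 988 normalized counts in siCt 1 and siCt 2 and 1820.1 and 2046 in siAxl 1 and siAxl 2 (log2 fold change 0.89, SE 0.0852, adjusted p = 0.00218 by limma). VCL, or vinculin, had 21723 and 21692 normalized counts in siCt and 26479 and 26969 in siAxl (log2 fold change 0.30, SE 0.0535, adjusted p = 0.0121 by limma), and LIMS2, a partner of ILK, had 633 and 548 normalized counts in siCt and 899 and 777 in siAxl (log2 fold change 0.50, SE 0.108, adjusted p = 0.0218 by limma), and ILK was the fourth. The talin genes TLN1 and TLN2, the focal adhesion kinase gene PTK2 and SRC were not called. The number lower at an unadjusted p under 0.05 was 1, TLN2, and edgeR and DESeq2 called 0. Fewer of the list were called without siAxl 1 and without siAxl 2, as over all tested genes. VCL was then at 0.31 (limma adjusted p = 0.0529) and 0.29 (0.0652), and LIMS2 was at 0.40 (0.0928) without siAxl 1. In the list of integrin brakes and inactivators, 2 of 7 tested genes were called higher and 0 lower (median 0.077, with FLNA in this list and the last). A place in the list does not mean that a gene holds integrins inactive. At an unadjusted p under 0.05 the number lower was 0, and edgeR and DESeq2 called 0 lower. KANK2, which binds talin at the rim of adhesions, had 5243 and 4849 normalized counts in siCt and 7020.0 and 7216 in siAxl (log2 fold change 0.50, SE 0.0603, adjusted p = 0.00369 by limma), and SHANK3, which sequesters the small GTPases of integrin activation, had 548 and 507 normalized counts in siCt and 801 and 799 in siAxl (log2 fold change 0.60, SE 0.0815, adjusted p = 0.00509 by limma).

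Ligands of integrins other than laminin went both ways, with 3 of 14 tested called higher and 2 lower (median 0.032). At an unadjusted p under 0.05 by limma the number lower was 4, CDH1, SPP1, THBS1 and CYR61. ICAM2 and CTGF were higher at that limit, besides the 3 called. The number called lower was 2 by edgeR and 3 by DESeq2. THBS1 had 38532 and 39197 normalized counts in siCt and 34766 and 31823 in siAxl (-0.22, limma adjusted p = 0.0536). CYR61 had 24385 and 29414 against 20577 and 22781 (-0.31, 0.0697). TNC, or tenascin C, a ligand of receptors with ITGAV or ITGA9, had 8589 and 8338 normalized counts in siCt 1 and siCt 2 and 13535 and 12687 in siAxl 1 and siAxl 2 (log2 fold change 0.63, SE 0.0577, adjusted p = 0.00203 by limma). MFGE8, an RGD protein bound by ITGAV with ITGB3 or ITGB5, had 4264 and 3889.8 normalized counts in siCt and 6115 and 5783 in siAxl (log2 fold change 0.55, SE 0.0661, adjusted p = 0.00369 by limma), and ICAM1 was the other gene called higher. CDH1, which encodes E-cadherin, the ligand of ITGAE with ITGB7, had 90.1 and 94.3 normalized counts in siCt and 36.9 and 22.6 in siAxl (log2 fold change -1.64, SE 0.261, adjusted p = 0.00847 by limma). SPP1, or osteopontin, had 18.2 and 20.6 normalized counts in siCt and 4.86 and 5.90 in siAxl (log2 fold change -1.68, SE 0.352, adjusted p = 0.0204 by limma), and its call was lost without siCt 2 (-1.60, adjusted p = 0.0565) and without siAxl 1 (-1.56, 0.0652). It had 19 reads in each siCt library and 5 and 6 in the siAxl libraries, so that it reached the filter only through siCt and a difference was built in. Without siCt 1 more of the list were called, as over all tested genes. FN1, or fibronectin, the ligand of the ITGA5 receptor, had a log2 fold change of 0.027 (limma adjusted p = 0.821), while ITGA5 was called higher.

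**Figure D4:**
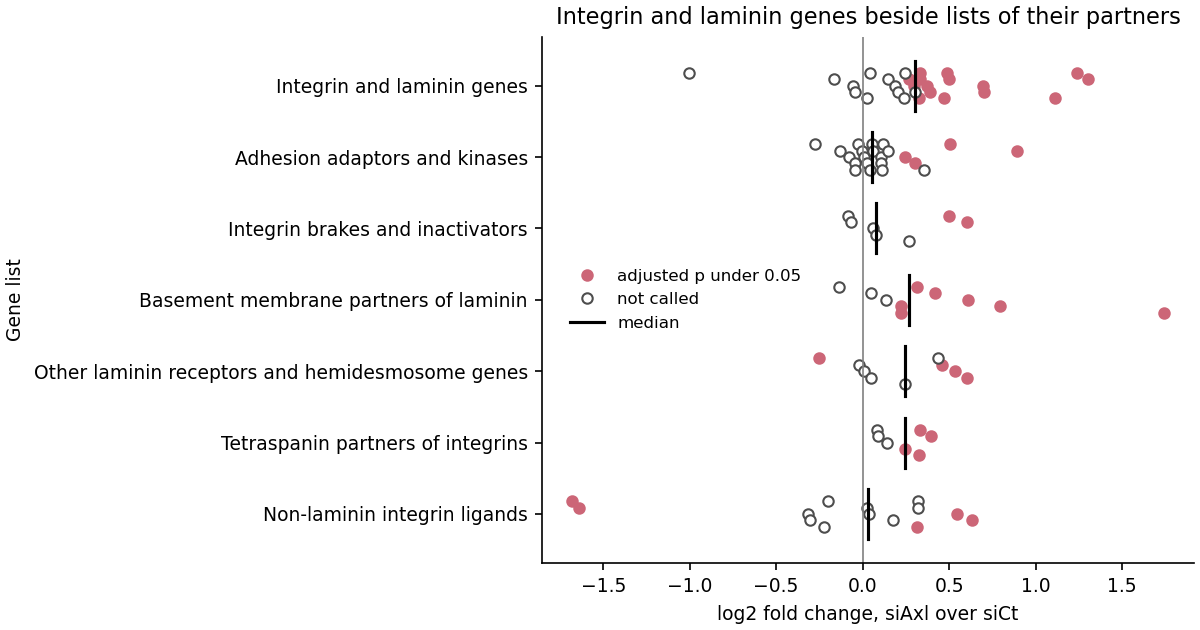
Log2 fold changes of siAxl over siCt for the tested integrin and laminin genes and for 6 lists of their partners, 1 point per gene, filled for an adjusted p under 0.05, with a black line at the median of each list. The median is 0.30 for integrin and laminin genes, 0.27 for basement membrane partners and 0.056 for adhesion adaptors and kinases.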

How the data were processed

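RNA of MDA-MB-231 cells was measured in 2 siCt and 2 siAxl libraries, grouped by their labels. The authors deposited 1 table with normalized counts per gene and library, a signal made by dividing read counts by DESeq2 size factors. The submitters' processing notes name CASAVA 1.8, TopHat2 2.0.10, HTSeq 0.5.3, DESeq2 1.4.5 and GRCh37. The annotation and the strand setting are not given in the sources used here. The authors' columns of log2 fold changes, of score-like standard errors and Wald statistics, and of p-values were deposited beside them and were not used. All values were whole multiples of 1 read (100% within 0.001 reads), so that reads were recovered. Per-sample columns left unused numbered 0.

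Genes passing edgeR's filterByExpr (minimum count 10, in 2 libraries) on the recovered reads were tested with limma 3.58.1 in R 4.3.3 (lmFit, eBayes with trend) on log2(normalized count + 1), siAxl against siCt with no covariate. Libraries held 44281982, 39574387, 44585773 and 44559547 reads (siCt 1, siCt 2, siAxl 1, siAxl 2), and limits from counts cover counting error only. Libraries of a group differed beyond sampling noise (chi-square per gene 20.1 and 18.2), so each counted as 1 sample. Alternatives were TMM and sum scaling, a filter of 1 read, pseudocounts 0.5 and 8, edgeR 4.0.16, DESeq2 1.42.0, each library left out, and a replicate block. Members per kb used GENCODE 29, for names, lengths and overlaps without coordinates. Where a symbol was repeated the entry with the highest mean was kept.

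The members, the gene lists and the 7-base word were chosen with earlier results of these data known. 1 gene of the families is not reported here and is left out of the members' counts. Every other tested integrin and laminin gene is named, and of each partner list the 3 called genes with the smallest adjusted p and those called against the majority. PLEC, DST, TLN1, TLN2, PTK2, SRC, FN1, NID1, THBS1, CYR61, ICAM2, CTGF and the further called genes were named after their values were seen. TNS2 was not matched by symbol.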

Additional observations from a re-analysis of the deposited data

How the results depend on the processing

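TMM scaling, both other pseudocounts and edgeR kept all 15 calls of integrin and laminin genes. Sum scaling lost LAMC1, DESeq2 lost ITGA10 and gave ITGA2B no adjusted p, and all alternatives that gave a value kept the direction of the 15. ITGA5, ITGA6, ITGB4, ITGB5 and LAMB1 were called in every setting. Testing every gene with at least 1 read left 757 genes higher and 340 lower over the table, and 5 higher among the members. In that setting the calls were 2 among adhesion adaptors and kinases, 4 among basement membrane partners and 3 among non-laminin ligands, and the cause was not tested. With 1 library left out, where a lone library is assumed to vary like the other group, the calls over all genes were 872 to 2158 higher and 413 to 1742 lower. The members then had 8 to 13 higher, the fewest without siAxl 2, and 0 to 1 lower, LAMA3 without siCt 1. The lists had 1 to 5 calls (adaptors and kinases), 4 to 7 (basement membrane), 2 to 4 (tetraspanins) and 4 to 8 (ligands). ITGA7 ranged from -0.16 to 0.045, ITGB6 from -0.19 to 0.10, LAMA1 from -0.13 to 0.54 and LAMA2 from -0.10 to 0.15, and LAMA2 was at -0.0060 under sum scaling. The median over the members stayed between 0.26 and 0.33.

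The labels give both groups the replicate numbers 1 and 2, but do not say that a number marks a shared culture or day. With only 2 pairs, the deviations of libraries with the same number correlated at r = 0.27 across 16064 genes, which are not independent. Between the groups, chi-square per gene was 32.85 and 39.61 for libraries with the same number. For libraries with different numbers it was 46.33 and 58.77. Libraries with the same number thus lay closer, but what they share is not given and was not tested. The main fit did not take the numbers as pairs, and calls such as that of ITGB1 depend on this choice. The replicate block gave 3737 genes higher (23.3% of those tested) and 3573 lower (22.2%), 19 members higher, with ITGB1 (adjusted p = 6.05e-05), LAMB3 (2.17e-06), ITGB8 (0.000282) and ITGB2 (0.0444) added to the 15, and 2 lower (LAMA3 and ITGB7), and 11 calls among adaptors and kinases and 10 among ligands. The depth limits ITGA2B, ITGA7, ITGB7 and LAMA1, with 46 to 94 reads over the 4 libraries.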
